A study of Homo sapiens with 12 samples.

Results

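The early growth response factors EGR1, EGR2, EGR3 and EGR4 and their corepressors NAB1 and NAB2 were followed through serum starvation and 30 min of serum in HCT116, a human colorectal carcinoma cell line. The 6 genes were taken by symbol and Ensembl identifier from a table of 19901 genes, and all 6 entered the tests, which covered 13093 genes. The cells were 1 clone, sorted from a single cell and named KAP1_dTAG_CloneD5, in which both alleles of KAP1 (the product of TRIM28, a chromatin-associated cofactor of transcription) carry a degron tag. Every group therefore carries the tagged protein, and every group was serum starved for 48 h. In DMSO-S0, cells received the DMSO vehicle for the last 8 h and no serum. In DMSO-S30, the same vehicle treatment was followed by 30 min of serum. In dTAG-S0 and dTAG-S30, the dTAG ligand, which directs the tagged KAP1 to degradation, replaced the vehicle over the same 8 h, without serum and with 30 min of serum. No group holds untagged cells given the ligand, so an effect of the ligand itself cannot be told from KAP1 loss. Each group holds 3 libraries of total RNA depleted of ribosomal RNA, described by the study as biological replicates.

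The EGR proteins are zinc finger transcription factors that bind GC-rich sites, and their genes belong to the immediate early genes (IEGs), which are transcribed within minutes of a growth signal without need for new protein synthesis. In the textbook route, serum activates the RAS and ERK kinases, which phosphorylate ternary complex factors such as ELK1, and these act together with SRF at CArG boxes in the promoters. NAB1 and NAB2 bind a repression domain present in EGR1, EGR2 and EGR3 and lower their activity, NAB2 in part through CHD4 of the NuRD complex, and NAB2 is known as an EGR target, which closes a negative feedback loop. EGR4 is described as lacking that domain.

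The table counts reads over whole genes, introns included. EGR1 (ENSG00000120738.7) lies on chromosome 5 at 138465490 to 138469315 on the plus strand, EGR3 (ENSG00000179388.8) on chromosome 8 at 22687659 to 22693302 on the minus strand, and EGR4 (ENSG00000135625.7) on chromosome 2 at 73290929 to 73293705 on the minus strand, all on hg38. NAB1 (ENSG00000138386.16) spans chromosome 2 from 190646746 to 190692766 on the plus strand and NAB2 (ENSG00000166886.12) chromosome 12 from 57088894 to 57095476 on the plus strand. The row of EGR2 (ENSG00000122877.15) runs over 107906 bases of chromosome 10, from 62811996 to 62919900 on the minus strand, whereas GENCODE v44 gives the gene 7172 bases. The rest of that row lies over a long noncoding RNA gene, ENSG00000289487, on the same strand, and reads from it cannot be told from reads of EGR2. Long noncoding genes on the opposite strand overlap EGR3 over 3153 bases and NAB1 over 3095 and 20470 bases, and STAT6 overlaps NAB2 over 69 bases. The strand setting of the counting is not given in the sources used here, so reads of such partners could be in these rows.

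Library totals ranged from 20537682 to 26278707 counts, with 7.97% to 9.37% of counts on the ERCC spike-in transcripts. On the first principal component, which carried 61.9% of the variance, serum separated the libraries, and on the second (7.37%) dTAG lay below DMSO, with replicate 1 of dTAG-S30 and replicate 2 of dTAG-S0 closest to the DMSO libraries. TRIM28 mRNA did not pass the test between dTAG and DMSO (log2 fold change -0.06 without serum and -0.05 with serum), and since the ligand acts on the protein these counts do not check the depletion. Of the epithelial and intestinal markers, EPCAM stood at 252 to 284 CPM (counts divided by the scaled library size) and CDX2 at 11.5 to 16.9 CPM, while VIL1 was nearly absent with 1 to 7 counts per library. The summed level of 5 markers of other cell types (PTPRC, CD3E, PECAM1, COL1A1, VIM) was 17.0 to 19.2 CPM in DMSO-S0, 83.2 to 88.8 CPM in DMSO-S30, 15 to 18.2 CPM in dTAG-S0 and 70.3 to 81.9 CPM in dTAG-S30. Nearly all of the difference was COL1A1, since the other 4 summed to at most 4.63 CPM in any library and CD3E and PECAM1 were at 0 in some libraries. The part of COL1A1 in the serum results was not tested.

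The sequence before the transcript starts is shown for 5 of the genes because it holds the sites through which serum is known to reach IEGs. These are the 250 bases before a RefSeq start on GRCh38.p14, 5′ to 3′ on the gene's strand, with matches in capitals to a CArG box (CC, 6 bases of A or T, GG), to an EGR site (GCGNGGGCG) and to the core of a cyclic AMP response element (CRE core, TGACGT), each searched on both strands. RefSeq gave 9 such windows for these 5 genes, and the window with most matches is printed for each gene.
EGR1, chr5:138465229-138465478, plus strand: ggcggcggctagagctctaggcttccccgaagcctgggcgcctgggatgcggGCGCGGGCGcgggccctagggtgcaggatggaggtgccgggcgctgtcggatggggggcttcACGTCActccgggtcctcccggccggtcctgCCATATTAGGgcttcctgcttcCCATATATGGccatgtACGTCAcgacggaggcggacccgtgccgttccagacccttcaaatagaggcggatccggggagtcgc
EGR2, chr10:62816367-62816616, minus strand: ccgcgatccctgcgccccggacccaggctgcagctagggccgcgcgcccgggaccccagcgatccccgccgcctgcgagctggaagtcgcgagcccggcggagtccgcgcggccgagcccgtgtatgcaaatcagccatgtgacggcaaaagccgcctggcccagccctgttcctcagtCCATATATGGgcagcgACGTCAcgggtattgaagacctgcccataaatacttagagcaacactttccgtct
EGR4, chr2:73293549-73293798, minus strand: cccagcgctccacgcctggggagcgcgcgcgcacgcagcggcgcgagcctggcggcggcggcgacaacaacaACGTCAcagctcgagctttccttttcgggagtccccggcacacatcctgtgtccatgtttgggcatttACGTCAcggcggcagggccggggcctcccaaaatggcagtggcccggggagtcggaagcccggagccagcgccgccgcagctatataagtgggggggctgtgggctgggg
NAB1, chr2:190648833-190649082, plus strand: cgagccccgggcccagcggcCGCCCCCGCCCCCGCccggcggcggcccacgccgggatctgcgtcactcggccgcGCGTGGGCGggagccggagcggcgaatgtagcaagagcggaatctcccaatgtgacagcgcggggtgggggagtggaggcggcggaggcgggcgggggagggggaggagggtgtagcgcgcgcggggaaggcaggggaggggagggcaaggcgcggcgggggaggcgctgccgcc
NAB2, chr12:57088864-57089113, plus strand: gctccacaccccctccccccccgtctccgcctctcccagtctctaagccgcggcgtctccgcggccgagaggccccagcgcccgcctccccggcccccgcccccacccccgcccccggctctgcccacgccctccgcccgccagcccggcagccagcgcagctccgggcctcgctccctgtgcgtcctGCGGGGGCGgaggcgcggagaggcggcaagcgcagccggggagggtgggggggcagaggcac
The EGR1 window held 2 CArG boxes, at -105 to -96 and at -83 to -74 from the start, and the EGR2 window held 1, at -71 to -62. The proximal box of EGR1 and the box of EGR2 had the same 10 letters, CCATATATGG, and each was followed by a CRE core, at -67 to -62 in EGR1 and at -55 to -50 in EGR2. EGR1 held another CRE core at -136 to -131. A CArG box was present in 1.16% of all 35116 RefSeq windows of this length, and a CRE core in 7.10%. EGR4 had no CArG box in its window and 2 CRE cores, at -178 to -173 and at -110 to -105. Another NAB1 window, not printed here, held a CRE core at -200 to -195. EGR sites, which 8.42% of all windows hold, were matched in the windows of EGR1 (-198 to -190), NAB2 (-62 to -54) and NAB1. The 3 matches in the NAB1 window printed here lie at -230 to -222, -224 to -216 and -175 to -167, and the first overlaps the next. The other 2 EGR2 windows held none of the 3 motifs. No member window held the full CRE (TGACGTCA, in 1.65% of all windows) or the ETS-type sequence CCGGAA (in 14.5%). Shorter ETS sequences such as GGAA were not searched, so these windows may hold ETS sites. A match is a sequence description and not a measured binding site.

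**Figure D1:**
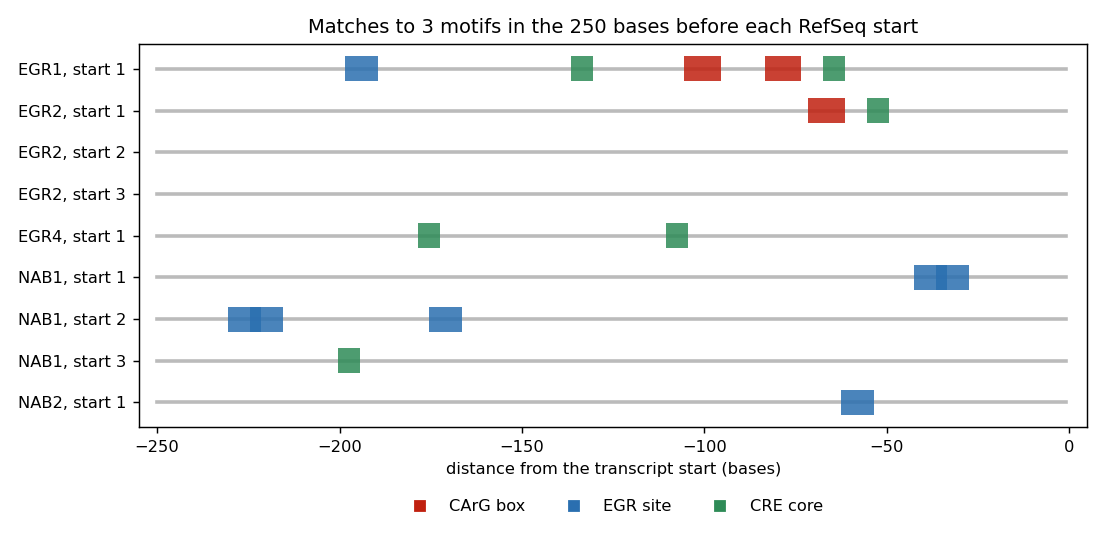
Positions of motif matches (coloured boxes) in the 250 bases before each RefSeq transcript start of EGR1, EGR2, EGR4, NAB1 and NAB2; the horizontal axis is the distance from the start in bases and each row is 1 start. CArG boxes appear in the EGR1 row and in 1 of the 3 EGR2 rows, and EGR sites in EGR1, NAB1 and NAB2.

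**Figure D2:**
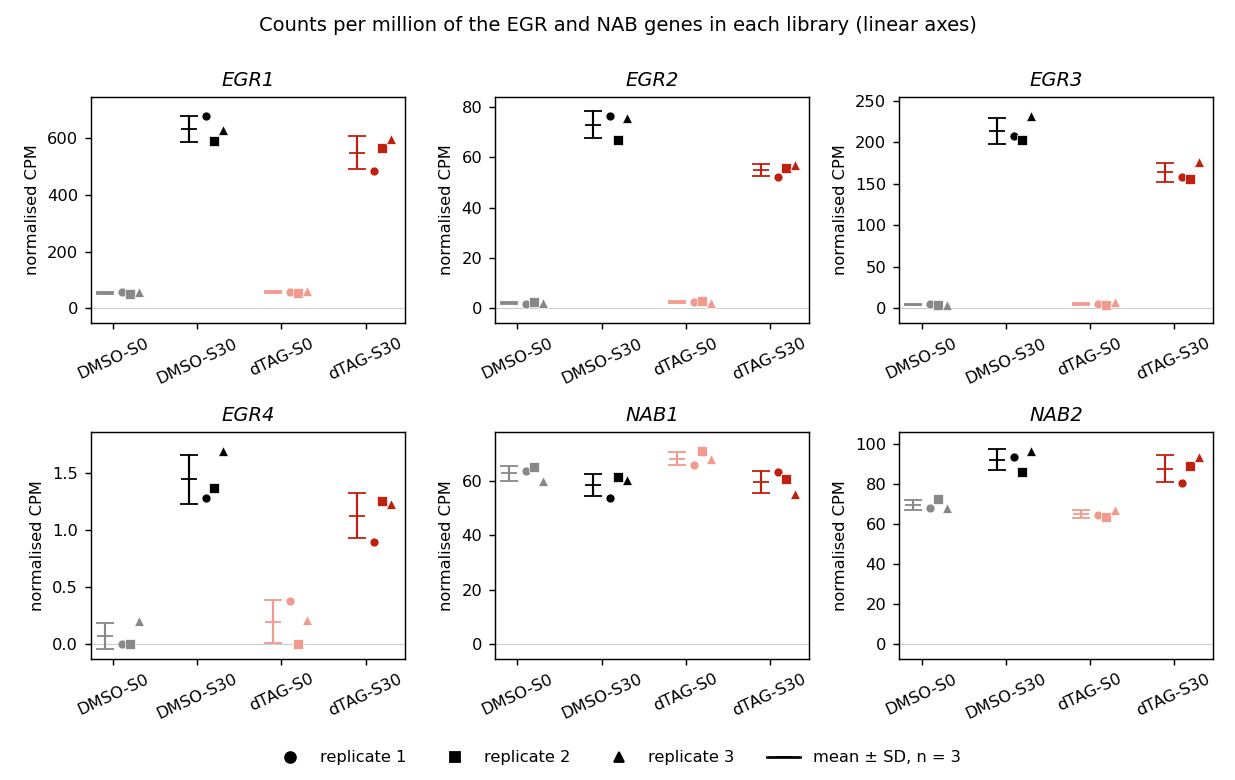
Normalised CPM (vertical axes, linear) of the 6 genes in each of the 12 libraries, by group; points are libraries, shapes give the replicate number, and the horizontal and vertical bars are the mean and SD of 3 libraries. EGR1, EGR2, EGR3 and EGR4 lie far above their S0 levels in every S30 library, NAB2 lies moderately above, and NAB1 stays near its S0 level.

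Per length of the whole gene, introns included, EGR1 had the highest level of the 6 genes in every group. This measure lowers long genes such as NAB1. In mean CPM not divided by length, NAB2 (69.6) and NAB1 (62.8) stood above EGR1 (54.9) in DMSO-S0. The same held in dTAG-S0 (NAB2 65.1, NAB1 68.3 and EGR1 57.4). In DMSO-S0 the order in CPM per kb was EGR1 at 14.3 ± 1.03 (SD, n = 3), NAB2 at 10.6 ± 0.382, NAB1 at 1.37 ± 0.0576, EGR3 at 0.796 ± 0.0838, EGR2 at 0.305 ± 0.0673 and EGR4 at 0.0235 ± 0.0408, with EGR2 taken over its GENCODE v44 length. In DMSO-S30 it became EGR1 at 165 ± 11.6, EGR3 at 37.9 ± 2.76, NAB2 at 14.0 ± 0.802, EGR2 at 10.2 ± 0.746, NAB1 at 1.27 ± 0.0893 and EGR4 at 0.520 ± 0.0784. EGR3 thus moved from below both corepressors to above them. The same 2 orders were found in dTAG-S0 and dTAG-S30, and no neighbours in any of the 4 orders overlapped over their 3 libraries. Over the full row of the table EGR2 would stand at 0.677 CPM per kb in DMSO-S30, so its place depends on the length used.

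Serum for 30 min raised EGR1, EGR2, EGR3 and NAB2, whether KAP1 had been left in place or depleted, and the fold of each of these EGR genes was several times that of NAB2. EGR4 was also called higher, but it is left out of the counts here because it could be tested only through its serum libraries. The comparisons address how far starved cells induce these genes, first with KAP1 present (DMSO-S30 against DMSO-S0) and then after its depletion (dTAG-S30 against dTAG-S0). In bulk RNA, a change in how many cells express a gene cannot be told apart from a change in RNA per cell. With DMSO, 4 of the 5 other genes passed the test as higher (edgeR quasi-likelihood test, Benjamini-Hochberg adjustment), against 9.39% of all genes tested, and a log2 fold change of at least 3 was reached by EGR1, EGR2 and EGR3 and by 0.382% of all genes. With dTAG, these 4 genes passed as higher, against 9.31% of all genes, and EGR1, EGR2 and EGR3 again reached a log2 fold change of at least 3, as did 0.298% of all genes. Of all genes called after serum, 34.4% were higher with DMSO (61.3% under TMM scaling, 66.5% with library sizes from the ERCC total, 59.6% in DESeq2) and 36.4% with dTAG (61.8%, 62.5% and 59.0%), and the median log2 fold change over all genes was -0.07 and -0.06. The rises of the 4 genes kept their direction under each of these scalings.

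EGR1, the founding member and the highest of these genes per length, stood at 56.7, 50.4 and 57.5 CPM in DMSO-S0 and at 679, 591 and 628 CPM in DMSO-S30. The groups were far apart, with a log2 fold change of 3.56 (SE 0.0825, adjusted p = 4.83e-23), an 11.8-fold rise with a 95% interval of 10.5 to 13.2. In dTAG-S0 the values were 57.2, 54.3 and 60.7 CPM and in dTAG-S30 485, 566 and 598 CPM, a log2 fold change of 3.24 (SE 0.0780, adjusted p = 1.19e-22) or 9.48-fold. EGR1 ranked 31st of the 13093 genes by log2 fold change with DMSO and 35th with dTAG.

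EGR3, known for its role in muscle spindle development, had the largest fold of EGR1, EGR2 and EGR3 with DMSO. It went from 4.93, 3.99 and 4.56 CPM in DMSO-S0 to 208, 203 and 232 CPM in DMSO-S30, a log2 fold change of 5.62 (SE 0.106, adjusted p = 3.22e-25) or 49.1-fold (95% interval 42.2 to 57.1). In dTAG-S0 it stood at 5.36, 4.68 and 7.20 CPM and in dTAG-S30 at 159, 156 and 176 CPM, a log2 fold change of 4.81 (SE 0.0974, adjusted p = 1.87e-24) or 28.0-fold (24.4 to 32.2). No library of either S30 group came near an S0 library. EGR3 ranked 11th of all genes with DMSO and 13th with dTAG.

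EGR2, known for its role in myelination and in hindbrain patterning, was scarcely present in starved cells, with 32 to 58 counts per DMSO-S0 library. Its CPM values went from 1.70, 2.66 and 2.21 to 76.5, 66.9 and 75.7 with DMSO, a log2 fold change of 5.02 (SE 0.120, adjusted p = 1.08e-22) or 32.5-fold. With dTAG they went from 2.44, 2.94 and 2.04 to 52.2, 55.7 and 56.8, a log2 fold change of 4.48 (SE 0.114, adjusted p = 4.48e-22) or 22.3-fold. The S0 values overlapped between DMSO and dTAG, and the S30 values did not.

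EGR4 was measured at the edge of detection. Its counts were 0, 0 and 4 in DMSO-S0, 26, 31 and 35 in DMSO-S30, 8, 0 and 5 in dTAG-S0 and 20, 28 and 27 in dTAG-S30. It passed the filter of 10 counts in 6 libraries only through its 6 serum libraries, so a difference with serum was required for it to be tested at all. The log2 fold change was 4.37 with DMSO (SE 0.657, adjusted p = 1.05e-05) and 2.51 with dTAG (SE 0.526, adjusted p = 0.000766), with wide 95% intervals of 3.02 to 5.72 and 1.43 to 3.59 on the log2 scale, and the fold with DMSO lies between 8.11 and 52.7. The log2 fold change with DMSO moved between 3.81 and 8.14 when 1 S0 library was left out at a time, the highest of these without replicate 3 of DMSO-S0, where the remaining S0 libraries hold 0 counts and the fitted value is no bound, and leaving out an S30 library removed the gene from the test. With dTAG it moved between 1.92, without replicate 2 of dTAG-S0, and 3.38, without replicate 1 of dTAG-S0.

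NAB2, the inducible corepressor, stood at 68.0, 72.5 and 68.2 CPM in DMSO-S0 and at 93.8, 86.4 and 96.6 CPM in DMSO-S30. It rose by a log2 fold change of 0.42 (SE 0.0662, adjusted p = 2.39e-05), 1.33-fold with a 95% interval of 1.21 to 1.47, and the groups did not overlap. With dTAG it went from 64.4, 63.7 and 67.2 to 80.5, 89.3 and 93.6 CPM, a log2 fold change of 0.43 (SE 0.0637, adjusted p = 1.03e-05) or 1.34-fold. STAT6, the overlapping neighbour on the other strand, showed log2 fold changes of 0.04 and -0.00 in these comparisons, neither past the threshold.

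NAB1, the constitutive corepressor, stood at 63.6, 65.0 and 59.9 CPM in DMSO-S0 and at 53.9, 61.5 and 60.5 CPM in DMSO-S30. These overlapped, and the log2 fold change of -0.10 (SE 0.0698, adjusted p = 0.327) has a 95% interval from -15.2% to 3.41% of the starting level. With dTAG it fell from 66.0, 71.0 and 68.0 CPM to 63.3, 60.7 and 55.3 CPM, a log2 fold change of -0.20 (SE 0.0665, adjusted p = 0.0314), in a comparison where 16.2% of all genes were called lower. That call was lost with TMM scaling (-0.14, adjusted p = 0.167), with ERCC library sizes (adjusted p = 0.296), in DESeq2 (0.165), without replicate 2 of dTAG-S0 (0.109) and without replicate 3 of dTAG-S30 (0.201).

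**Figure D3:**
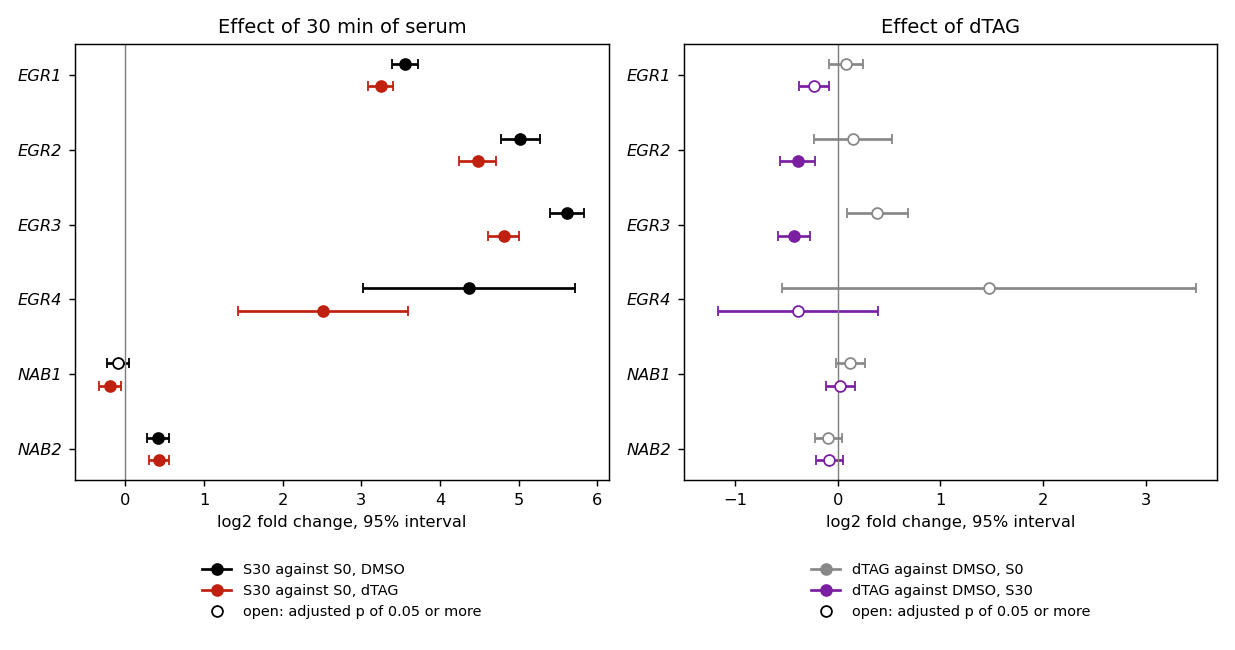
Log2 fold changes (horizontal axes) of the 6 genes with 95% intervals, for serum with DMSO or dTAG (left) and for dTAG against DMSO at S0 or S30 (right). Filled points passed an adjusted p of 0.05. Serum raised EGR1, EGR2, EGR3 and NAB2 in both treatments, the intervals of EGR4 are the widest, and among the dTAG effects the points for EGR2 and EGR3 at S30 are filled.

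In starved cells, no difference between dTAG and DMSO passed the test for any of the 6 genes. This comparison (dTAG-S0 against DMSO-S0) addresses whether the genes depend on KAP1 before the stimulus. In edgeR 0 of 6 genes were called, in a comparison where 1.47% of all genes were. At an unadjusted p under 0.05 there was 1, EGR3, against 12.2% of all genes, and DESeq2 and the likelihood ratio test also called 0. In DESeq2 EGR4 had no adjusted p here. EGR1 differed by a log2 fold change of 0.08 (SE 0.0785, adjusted p = 0.737), with a 95% interval of -5.43% to 18.2%, and EGR2 by 0.15 (SE 0.184, adjusted p = 0.795), with an interval of -14.5% to 44.5%. For EGR4, with at most 8 counts per library here, the interval of -31.5% to 1026% leaves the sign undetermined. NAB1 differed by 0.12 (SE 0.0671, adjusted p = 0.475) and NAB2 by -0.09 (SE 0.0647, adjusted p = 0.619).

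EGR3 was the exception nearest the threshold in starved cells. Its 3 dTAG-S0 libraries stood 19.3%, 4.05% and 60.3% above the mean of DMSO-S0, and replicate 2 lay within the DMSO range. The log2 fold change was 0.39 (SE 0.144, unadjusted p = 0.0123, adjusted p = 0.228). It was 0.17 (adjusted p = 0.782) without replicate 3 of dTAG-S0 and 0.53 (adjusted p = 0.0467) without replicate 2, the dTAG-S0 library closest to DMSO on the second component.

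After serum, EGR2 and EGR3 were lower in dTAG-treated than in DMSO-treated cells while neither corepressor passed the test. This comparison (dTAG-S30 against DMSO-S30) addresses whether the induced level depends on KAP1. EGR3 fell by 0.42 on the log2 scale (SE 0.0750, adjusted p = 0.00165), a change of -25.4% with a 95% interval of -33.0% to -17.0%, and EGR2 fell by 0.39 (SE 0.0830, adjusted p = 0.0107), a change of -23.6% with an interval of -32.1% to -14.0%. The called lower genes were 2 of 6 here and 0.642% of all genes tested. At an unadjusted p under 0.05, 3 of 6 were lower (5.54% of all genes), and in 3 of 6, EGR2, EGR3 and EGR4, the 3 dTAG-S30 libraries all lay below the 3 DMSO-S30 libraries (8.1% of all genes). For EGR4 the gap was narrow, with a highest dTAG-S30 value of 1.25 CPM and a lowest DMSO-S30 value of 1.28 CPM. Its counts before scaling, 20 to 28 in dTAG-S30 and 26 to 35 in DMSO-S30, overlapped.

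The fall of EGR3 was seen in each library. The dTAG-S30 libraries differed from the mean of DMSO-S30 by -25.8%, -27.1% and -17.6%. The call held without any 1 of the 12 libraries, with adjusted p between 0.000209 and 0.0370, and without replicate 1 of dTAG-S30, the library closest to DMSO on the second component, the log2 fold change was -0.42. It was lost with library sizes from the ERCC total (-0.39, adjusted p = 0.0660).

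The call of EGR2 was less stable than that of EGR3, although all 3 dTAG-S30 libraries lay below the DMSO-S30 mean. Its dTAG-S30 libraries differed from the DMSO-S30 mean by -28.6%, -23.7% and -22.2%. The call was lost without replicate 1 of dTAG-S30 (-0.28, adjusted p = 0.144), without replicate 3 of DMSO-S30 (-0.34, adjusted p = 0.129) and with ERCC library sizes (-0.41, adjusted p = 0.0515).

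EGR1 showed a smaller difference in the same direction that did not pass the test. Its dTAG-S30 libraries differed from the DMSO-S30 mean by -23.3%, -10.6% and -5.47%, and the highest of them, replicate 3 at 598 CPM, was above the lowest DMSO-S30 library at 591 CPM. The log2 fold change was -0.23 (SE 0.0729, unadjusted p = 0.00402, adjusted p = 0.147), or -14.7% with a 95% interval of -23.1% to -5.40%. It was -0.11 (adjusted p = 0.527) without replicate 1 of dTAG-S30, so that library set much of its size. It passed without a count filter (-0.21, adjusted p = 0.0135), without replicate 3 of dTAG-S30 (-0.27, adjusted p = 0.0346) and without any 1 of the 3 DMSO-S0 libraries, which are not in this comparison but share its estimate of spread (adjusted p 0.0175 to 0.0479).

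EGR4 differed by -0.38 (SE 0.380, adjusted p = 0.792), with a 95% interval of -55.4% to 31.6%, so a fall of the size seen in EGR2 and EGR3 was not detectable at its depth. NAB1 differed by 0.02 (SE 0.0688, adjusted p = 0.945), with an interval of -7.82% to 12.1%. NAB2 differed by -0.08 (SE 0.0651, adjusted p = 0.729), with an interval of -13.8% to 3.72%. The interval of each corepressor thus ends short of the -23.6% of EGR2, although a difference between the genes was not itself tested.

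**Figure D4:**
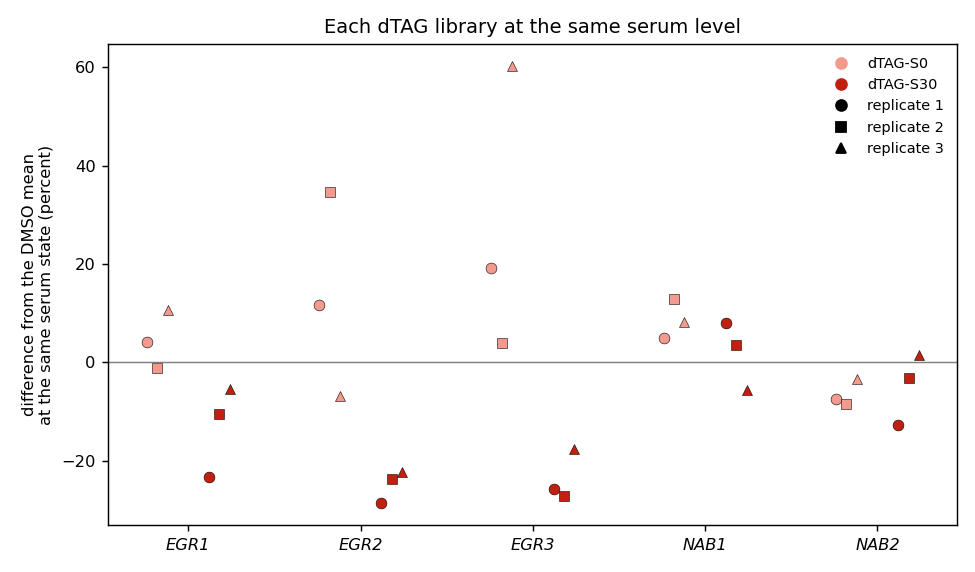
Difference of every dTAG library from the DMSO mean at the same serum state (vertical axis, percent; DMSO means are over 3 libraries) for EGR1, EGR2, EGR3, NAB1 and NAB2; shapes give the replicate number. All dTAG-S30 points of EGR1, EGR2 and EGR3 lie below 0, from -5.47% to -28.6%, while the dTAG-S0 points of EGR3 lie above 0, from 4.05% to 60.3%.

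The interaction asks whether the serum response itself differed between dTAG and DMSO. In edgeR 0 of the 6 genes passed, in a test that called 6 genes (0.0458%) of all tested, and 3 of 6 had an unadjusted p under 0.05 with a smaller response in dTAG (1.83% of all genes). EGR3 came closest, with a difference of -0.81 between its log2 fold changes (SE 0.165, unadjusted p = 4.00e-05, adjusted p = 0.0655), a change of the fold by -43.0% with a 95% interval of -54.9% to -27.9%. It joins a higher S0 level and a lower S30 level in dTAG-treated cells. DESeq2 called EGR3 alone of the 6 (adjusted p = 0.000516), as did the likelihood ratio test (0.000364), the fit without a count filter (0.000274) and the fit with 2 factors of unwanted variation (0.0454). In DESeq2 EGR4 had no adjusted p for the interaction. Without replicate 3 of dTAG-S0 the difference was -0.58 (adjusted p = 0.777), and without replicate 2 it was -0.95 (adjusted p = 0.00520). It also passed without replicate 1 (-0.79, adjusted p = 0.0340) or 2 (-0.90, adjusted p = 0.0164) of DMSO-S30 and without replicate 3 of dTAG-S30 (-0.81, adjusted p = 0.0246). The differences for EGR1 (-0.31, SE 0.110, unadjusted p = 0.00892) and EGR2 (-0.54, SE 0.204, unadjusted p = 0.0137) had adjusted p values of 0.9999. EGR4 had -1.86 (SE 1.06), NAB1 -0.10 (SE 0.0981) and NAB2 0.01 (SE 0.0939), none of them past an unadjusted p of 0.05.

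**Figure D5:**
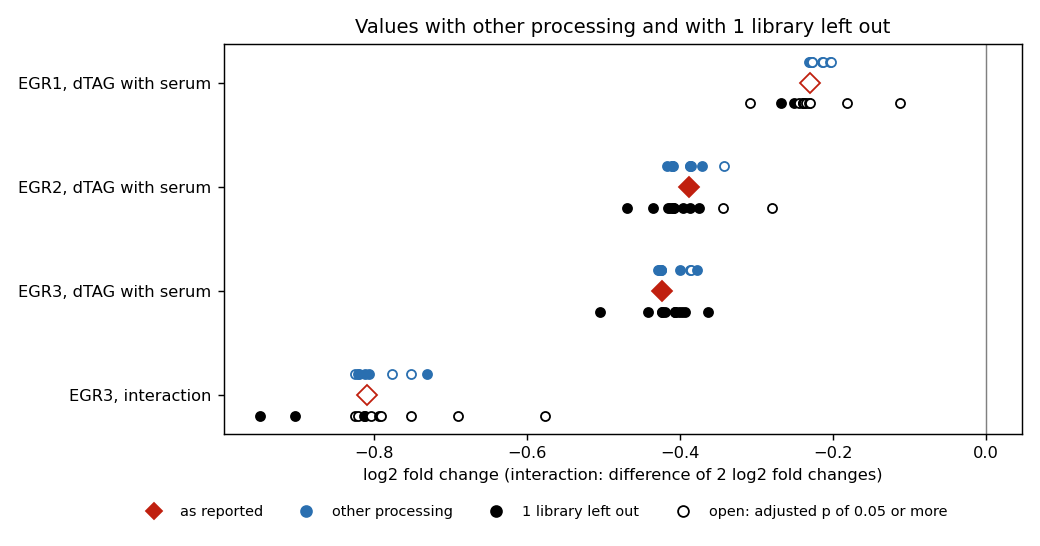
Log2 fold changes of EGR1, EGR2 and EGR3 between dTAG-S30 and DMSO-S30, and the interaction of EGR3 (horizontal axis), as reported (diamonds), with other processing (blue circles) and with 1 library left out (black circles); filled symbols passed an adjusted p of 0.05. All values lie below 0, those of EGR3 at S30 between -0.36 and -0.51, and whether the EGR1 value and the EGR3 interaction pass depends on the setting.

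Ratios of counts within a library need no scaling between libraries and compare EGR RNA with NAB RNA. They are not corrected for gene length, and EGR and NAB protein was not measured in these data. The summed counts of the 4 EGR genes per summed count of NAB1 and NAB2 rose from 0.466 ± 0.0462 (SD, n = 3) in DMSO-S0 to 6.11 ± 0.372 in DMSO-S30, and from 0.493 ± 0.0305 in dTAG-S0 to 5.21 ± 0.371 in dTAG-S30. The S30 libraries did not overlap, with 5.83 to 6.53 in DMSO-S30 and 4.85 to 5.59 in dTAG-S30. EGR1 counts per NAB2 count did not overlap at S30 either, at 6.50 to 7.24 in DMSO-S30 and 6.03 to 6.39 in dTAG-S30. At S0 the summed ratio overlapped, at 0.415 to 0.503 in DMSO-S0 and 0.460 to 0.519 in dTAG-S0. EGR1 per NAB2 was instead higher with dTAG at S0, at 0.852 to 0.904 against 0.695 to 0.843 with DMSO, without overlap. An exact permutation test of 3 against 3 libraries cannot go below p = 0.1, so these ratios are given without a test. The NAB2 to NAB1 ratio moved from 1.11 ± 0.0355 to 1.58 ± 0.168 with DMSO and from 0.954 ± 0.0495 to 1.48 ± 0.210 with dTAG. Its S0 libraries did not overlap, with 1.07 to 1.14 in DMSO-S0 and 0.897 to 0.988 in dTAG-S0, and its S30 libraries did.

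The make-up of the EGR counts also changed with serum. EGR1 gave 89.0% ± 0.622 of the summed EGR counts in DMSO-S0 and 68.6% ± 1.71 in DMSO-S30, and 87.2% ± 0.616 and 71.4% ± 1.57 in the dTAG groups. EGR3 counts amounted to 8.18% ± 0.442 of EGR1 counts in DMSO-S0 and 33.9% ± 3.20 in DMSO-S30. In dTAG-S30 the share was 29.9% ± 2.60, with libraries from 27.6% to 32.7% that overlapped the 30.6% to 36.9% of DMSO-S30.

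The genes most like each member were found by Pearson's r of log2 CPM over the 12 libraries, which share the serum contrast, so high values mostly restate it. For EGR1 they were IER2 (r = 0.999), FOS and CSRNP1, for EGR2 ZFP36 (r = 0.997), MAFF and SELENOK, and for EGR3 FOSL2 (r = 0.999), NR4A2 and ATF3. As many as 415, 405 and 431 genes had r over 0.95 with EGR1, EGR2 and EGR3. For NAB2 the 3 were TRIP13 (r = 0.977), CDKN1A and LUZP1, and 59 genes were over 0.95. For EGR4 they were RAB3A (r = 0.969), FGF19 and SMS, and for NAB1 POLR3G (r = 0.944), ATL2 and TMEM144, with no gene over 0.95. Of the 9 genes most like EGR1, EGR2 and EGR3, the AP-1 gene FOS (-0.32, adjusted p = 0.0107), CSRNP1 (-0.28, adjusted p = 0.00862) and ATF3 (-0.40, adjusted p = 0.000760) were called lower in dTAG-S30 than in DMSO-S30, against 0.642% of all genes. These 9 genes were picked for likeness over the same 12 libraries, so their calls are not independent of those of EGR2 and EGR3. ATF3 also passed the interaction (-0.69, adjusted p = 0.00515).

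Upstream of the EGR genes, in a list of 17 genes of SRF, the ternary complex factors and the ERK pathway, serum raised 3 with DMSO and 1 with dTAG and lowered none in the quasi-likelihood test, against 9.39% and 9.31% of all genes called higher. These are RNA levels, and the phosphorylation by which this route acts was not measured in these data. TMM scaling and DESeq2 each called 3 higher in both treatments and ERCC library sizes 1 in both, and the difference between 3 and 1 was not tested. With 1 library left out, the number raised ranged from 1 to 3 in each treatment, with 1 for DMSO without replicate 2 of DMSO-S0 or replicate 1 of DMSO-S30 and 3 for dTAG without replicate 3 of DMSO-S0. SRF itself, the factor that binds CArG boxes, rose by log2 fold changes of 2.72 (SE 0.0748, adjusted p = 2.38e-21) and 2.53 (SE 0.0707, adjusted p = 3.95e-21). ELK1, a ternary complex factor, rose by 0.21 with DMSO (adjusted p = 0.0253) and CREB1, which binds CRE sites, by 0.16 (adjusted p = 0.0319), and both calls were lost with ERCC library sizes (0.0635 and 0.0565). The list's median log2 fold change was -0.02 with DMSO and 0.02 with dTAG, beside -0.07 and -0.06 over all genes. For dTAG against DMSO edgeR called 0 of the 17 at S0, at S30 and in the interaction, with 1, 2 and 1 at an unadjusted p under 0.05, and DESeq2 also called 0. At S30 the likelihood ratio test called 1 higher, as did the fits without a factor of unwanted variation, without a count filter and from the 6 libraries compared. The count at S30 was also 1 without any 1 of the DMSO-S0 libraries, without replicate 1 of DMSO-S30 and without replicate 1 of dTAG-S30.

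Among 13 genes of NuRD subunits, the complex that NAB2 reaches through CHD4, serum lowered 2 in each treatment and raised none in edgeR, against 17.9% of all genes called lower with DMSO and 16.2% with dTAG, so the list's share was near that of all genes. TMM scaling and DESeq2 also called 2 higher in each treatment. The DNA-binding subunit gene MBD2 fell by 0.28 with DMSO (adjusted p = 0.00108) and by 0.19 with dTAG (adjusted p = 0.0182), the latter lost under TMM scaling (0.151). MTA3 fell by 0.29 and 0.28 (adjusted p = 0.000928 and 0.00116), and the calls of both genes were lost with ERCC library sizes. The list's medians were -0.03 and 0.01. For dTAG against DMSO 0 of 13 were called by edgeR, DESeq2 or the likelihood ratio test, with 2 at S0, 0 at S30 and 0 in the interaction at an unadjusted p under 0.05. Of 5 factors that bind GC-rich sites shared with EGR proteins, WT1 was too low to test and edgeR called 0 of the other 4 in any of the 5 comparisons, with 0 at an unadjusted p under 0.05. DESeq2 called 0 as well, and TMM scaling called 1 higher after serum with dTAG.

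Of 24 described EGR target genes, 18 could be tested, and serum raised 7 in each treatment, against 9.39% and 9.31% of all genes. Whether these rises depend on EGR proteins was not tested. GDF15, a stress cytokine, rose by log2 fold changes of 2.39 with DMSO (SE 0.0863) and 1.91 with dTAG (SE 0.0813), and PLAU, the urokinase gene, by 2.31 (SE 0.102) and 1.96 (SE 0.0925). PDGFB, a growth factor, rose from 13.2 to 26.6 CPM with DMSO and from 16.4 to 31.3 CPM with dTAG, and ID3, an inhibitor of helix-loop-helix factors, from 92.2 to 183 CPM and from 78.8 to 171 CPM. The adjusted p was at most 2.60e-08 for these 4 genes in either treatment. In each treatment 1 of the 18 was called lower, against 17.9% of all genes with DMSO and 16.2% with dTAG. With DMSO it was TGFB1 (-0.25, adjusted p = 0.0291), and that call was lost under TMM scaling (0.119). With dTAG it was another gene, and TMM scaling called 0 lower there. The list's median log2 fold change was 0.07 with DMSO and 0.15 with dTAG.

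Between dTAG and DMSO 2 of the 18 described targets were called without serum and 3 of 18 with it, against 1.47% and 1.25% of all genes in either direction. At an unadjusted p under 0.05 there were 6 of 18 without serum, against 12.2% of all genes. With serum there were 7 of 18, of which 3 were lower, against 5.54% of all genes lower. Without serum, PLAU (0.49, adjusted p = 0.0139) and VEGFA, the endothelial growth factor gene (0.38, adjusted p = 0.00549), were higher in dTAG-treated cells. With serum, F3, the tissue factor gene (0.37, adjusted p = 0.00993), and VEGFA (0.32, adjusted p = 0.0205) were higher, and GDF15 was lower (-0.33, adjusted p = 0.0207). The count without serum was 1 when replicate 2 of DMSO-S0 or replicate 1 or 3 of dTAG-S0 was left out, and the count with serum was 1 without replicate 2 of DMSO-S30 or replicate 1 or 2 of dTAG-S30. With ERCC library sizes VEGFA at S0 stayed past the threshold and the other 4 of these calls were lost (adjusted p = 0.0584 for PLAU, 0.0539 for F3, 0.149 for VEGFA and 0.353 for GDF15). The list's medians were 0.01 at S0 and 0.10 at S30, beside -0.01 and -0.00 over all genes. The interaction called 0 of 18 in edgeR, DESeq2 and the likelihood ratio test, with 2 at an unadjusted p under 0.05.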

How the data were processed

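RNA-Seq was performed on 12 libraries, 3 per group. The authors trimmed reads with Trim Galore 0.6.4, aligned them with STAR to hg38 and deposited raw counts per gene, made by featureCounts (Subread 1.6.3) over whole genes. The strand and multi-mapping settings are not given in the sources used here. Samples were grouped by their titles.

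Genes with at least 10 counts in 6 libraries were kept (13093; 6808 were left out). Counts were scaled by the upper quartile and fitted over all 12 libraries in 1 model with edgeR 4.0.16 (R 4.3.3), quasi-likelihood F-test, with 1 factor of unwanted variation computed from 69 ERCC transcripts, and p-values were Benjamini-Hochberg adjusted over all genes tested, with a threshold of 0.05. SE is the log2 fold change divided by the square root of F, and 95% intervals use the total degrees of freedom of the fit. CPM divides the count by the scaled library size. Scaling on RNA totals cannot show a change in RNA per cell. The code was tested on simulated data.

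Named were the 6 genes, overlapping genes in the table, the 3 genes most correlated with each, and genes called in 4 pathway lists (up to 4 per list and comparison, by size of change). The members and lists were chosen with earlier results of these data known. Alternatives were TMM, ERCC library sizes, 0 or 2 factors, no count filter, the likelihood ratio test, DESeq2 1.42.0, a replicate block, the 6 libraries compared, and each library left out. Promoter windows came from RefSeq. EGR3 was left out of the promoter search, so its transcript starts were not examined. The value of 1 list gene is not reported here.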

Additional observations from a re-analysis of the deposited data

How the results depend on the processing

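The direction and the call held in 551 of the 587 repeats made for single genes, and the calls that changed are given with the results above or, for the replicate block, below. The values that changed sign had no call: EGR2 without serum in dTAG against DMSO was -0.0076 from the 6 libraries compared, NAB1 with serum ranged from -0.042 to 0.083 and NAB2 with serum from -0.147 to 0.0051 with 1 library left out, and the NAB2 interaction was -0.0072 with ERCC library sizes and -0.064 to 0.108 with 1 library left out. The counts of genes called were 3576 for serum with DMSO, 3346 for serum with dTAG, 193 for dTAG without serum, 164 for dTAG with serum and 6 for the interaction. With ERCC library sizes they were 1766, 1646, 76, 66 and 3. The likelihood ratio test gave 310, 278 and 15 for the last 3, no count filter gave 413 for dTAG with serum and 30 for the interaction, the 6 libraries compared gave 324 for dTAG with serum, and DESeq2 gave 12 for the interaction. With 1 library left out they ranged over 2702 to 4187, 2495 to 4115, 111 to 312, 99 to 267 and 5 to 14. The replicate numbers did not pair the libraries: deviations of same-numbered libraries correlated at -0.15 to 0.14, with 1 of 18 pairs over 0.1. With a replicate block the counts were 3666, 3451, 205, 181 and 7, the EGR2 difference with serum was -0.34 (adjusted p = 0.0534), and the EGR3 interaction was -0.81 (adjusted p = 0.0130). Depth limited EGR4, and DESeq2 gave it an adjusted p only for serum with DMSO. The causes of these changes were not tested.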
